A study of Danio rerio with 2 samples.

Results

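The genes described here encode enzymes of the breakdown of phenylalanine and tyrosine. They are pcbd1, tat, hpda, hpdb, hgd and fah, 6 genes of 27182 genes and unnamed targets on the array, and they were read by 17 of its 43553 probes. A probe was taken when its RefSeq accession was that of a member, as for 16 of the 17, or else by its gene symbol, current or older. The files give hpda only as zgc:56326 and hpdb only as hpd, a symbol that both genes have carried, so these were told apart by their RefSeq accessions. Tg(RE:HSE:EGFP) embryos, an F2 generation on the AB background, were compared with wild type (WT) AB embryos. The transgenic line was made to carry human RUNX1-Evi-1, a fusion gene of acute myeloid leukemia, on 1 side of a heat shock promoter and EGFP on the other. A promoter of this kind is not limited to blood, and the methods describe no choice of embryos by EGFP for the arrays. The study reports EGFP in most, not all, of the F2 offspring after heat shock. Both groups received the heat shock of 1 hour at 38 °C and are labelled as collected at 72 hpf (hours post fertilization), so the control shares the heat shock and differs in the transgene. There was 1 array per group, both labelled replicate 1, with Cy3-labelled total RNA. The methods speak of analysis in triplicate, and it is not stated whether either array is an average.

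With 1 array per group there is no spread between embryos, so no p-value is given, and a batch effect cannot be told apart from the transgene. The signed values are log2 differences, the Tg(RE:HSE:EGFP) array minus the WT array, and the arrays are named by the labels of the files. This direction opposes the study's for h1fx, a linker histone gene (now h1-10). The levels of h1fx by 1 probe were 10.02 on the Tg array and 11.36 on the WT array, and by its other probe 10.34 and 11.46. The study lists h1fx as higher in the transgenic fish, with the levels of the first of these probes under exchanged arrays. It also lists hdac4, a histone deacetylase gene, as higher. Both hdac4 probes were lower on the Tg array, at 11.03 and 6.70, than on the WT array, at 11.37 and 7.88. Unlike for h1fx, the hdac4 levels in the study are those of neither probe, under either order of the arrays. The study's pathway listing has tyrosine and tryptophan metabolism as upregulated, the way of the labels, but it comes from the study's arrays and is no separate measure. Its account of fewer red blood cells rests on blood smears and kidney cell suspensions of adult fish and on gata1. That gene was measured by PCR at several ages, the age of these arrays among them, and by in situ hybridization. Of 7 erythrocyte genes here, 1 was at least 2-fold lower on the Tg array and 6 were under 2-fold, with a median of -0.43. The other pathways of that listing were not compared. By PCR at the age of these arrays, the study had gata1, mpo and zebrafish runx1 lower and pu.1 higher in the transgenic fish. The array levels of these genes were not compared with that PCR here. Nor were those of the other histone deacetylase gene that the study lists as higher. The files hold no probe named for the fusion gene or EGFP by which the labels could be checked. Each direction given here holds for the arrays as labelled and would turn round if the files had been exchanged.

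In the liver, phenylalanine is converted to tyrosine and tyrosine to fumarate and acetoacetate, which enter energy metabolism. The step that makes tyrosine uses the cofactor tetrahydrobiopterin, which pterin-4a-carbinolamine dehydratase (pcbd1) helps to regenerate. Tyrosine aminotransferase (tat) then forms 4-hydroxyphenylpyruvate, a dioxygenase (hpda and hpdb in zebrafish) turns it into homogentisate, and homogentisate 1,2-dioxygenase (hgd) opens the ring. The product is isomerized by gstz1 and cut by fumarylacetoacetate hydrolase (fah). In humans, loss of these enzymes is known from alkaptonuria (HGD) and the hereditary tyrosinemias (TAT, HPD and FAH).

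All 6 genes were higher on the Tg array by their brightest probe, by 0.39 (hpda) to 1.44 (hgd) on the log2 scale for the 5 measured on both arrays. Hpdb, above background on the Tg array only, was higher by a bound of 1.06, and the filter fixed its direction. The median of the 6 with this bound was 0.97, and that of the 5 measured on both arrays was 0.90. The median of all 16238 genes above background on at least 1 array was -0.03 as measured and -0.02 with bounds, and 47.9% of them were above 0 as measured. The background limit was 6.71 on both arrays, the 95th percentile of 177 probes for chemosensory receptors (odorant, taste and trace amine), whose genes are active in few cells. At a threshold of 2-fold, hgd, fah and, by its bound, hpdb were higher, 3 genes were under 2-fold and none was lower. Those calls were made for 4.7% of all genes above background on the higher side and 3.51% on the lower side. All 6 passed the background filter, 5 of them on both arrays and hpdb on the Tg array alone.

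**Figure D1:**
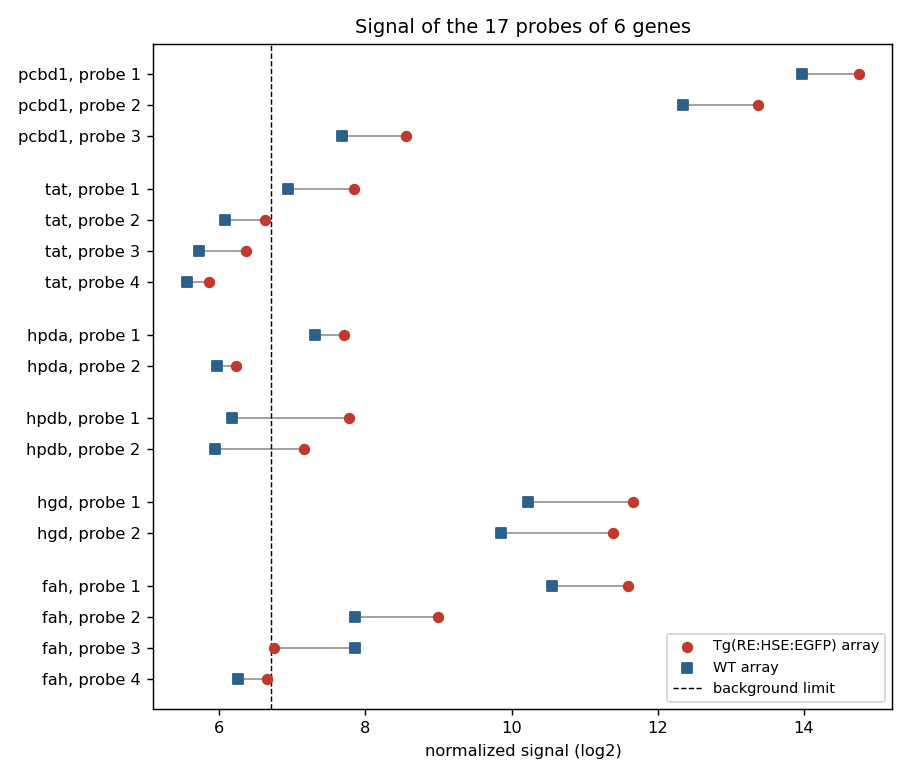
Normalized log2 signal (horizontal axis) of the 17 probes of the 6 genes on the Tg array (red circles) and the WT array (blue squares), probes of a gene ordered by brightness, with the background limit dashed. The Tg signal lies to the right of the WT signal for 16 probes and to the left for probe 3 of fah.

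Pcbd1, which returns the cofactor to the step that makes tyrosine, was read by 3 probes on chromosome 13. The brightest was at 14.75 on the Tg array and 13.97 on the WT array, a difference of 0.78 or 1.72-fold. The next was at 13.37 and 12.35, a difference of 1.02 that passes 2-fold, and the dimmest at 8.55 and 7.68, a difference of 0.88. The files list the location of that dimmest probe in the opposite orientation to the other pcbd1 probes, and the cDNA it was designed on carries the symbol but no RefSeq accession. The 3 probes of pcbd1 lie on both sides of 2-fold, so its call depends on which is read, while its direction does not.

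Tat, which removes the amino group of tyrosine, was close to background. Its brightest probe was at 7.84 on the Tg array and 6.95 on the WT array, a difference of 0.90 or 1.86-fold. Its other 3 probes, at 5.86 to 6.63 on the Tg array and 5.56 to 6.08 on the WT array, were not above background on either, with measured differences of 0.30, 0.54 and 0.65. All 4 tat probes were higher on the Tg array, and the size of the difference rests on the brightest of them alone. It was 0.60 as the mean over the 4 probes. The probe nearest the median difference of the gene, at 0.54, was not above background.

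The dioxygenase genes hpda and hpdb were both close to background. Hpda, on chromosome 5, was at 7.70 on the Tg array and 7.31 on the WT array, a difference of 0.39 or 1.31-fold, and its dimmer probe, at 6.23 and 5.97, was not above background. Hpdb, on chromosome 8, was at 7.77 on the Tg array and 6.17 on the WT array by 1 probe, and at 7.16 and 5.94 by the other. Both hpdb probes were above background on the Tg array and not on the WT array, so the difference is a bound, set by the lowest signal above background on the WT array. It was at least 2.09-fold higher by the brighter probe and at least 1.37-fold by the dimmer, with measured differences of 1.60 and 1.22. Against the 1.31-fold of hpda the brighter bound was larger and the dimmer close, so whether the 2 genes differ in size is not settled. The level of hpdb on the WT array was within the range of the receptor probes. With a stricter limit, the 99th percentile of those probes (7.87 on the Tg array and 8.27 on the WT array), neither hpda nor hpdb was above background, tat was not either, and 7 of the 17 probes remained, of pcbd1, hgd and fah.

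Hgd, which opens the aromatic ring, had the largest difference among members measured on both arrays. It was at 11.66 on the Tg array and 10.23 on the WT array by the brightest probe, a difference of 1.44 or 2.71-fold, and at 11.39 and 9.86 by the other, a difference of 1.53 or 2.88-fold. Both hgd probes passed 2-fold, and hgd was the 1 member that did so by every probe above background, since the dimmer hpdb probe fell short by its bound. The probes overlap by 57 bases on chromosome 24, so they are close to a repeated reading of 1 stretch of the transcript. Of all genes above background, 2.51% had a difference at least as high as that of hgd.

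Fah, the last enzyme, was read by 4 probes on chromosome 7 that did not move together. The brightest was at 11.60 on the Tg array and 10.56 on the WT array, a difference of 1.04 or 2.06-fold. The next, which lies 7 bases from it, was at 8.99 and 7.86, a difference of 1.12. Probe 3 was lower on the Tg array, at 6.75 against 7.86 on the WT array, a difference of -1.11, and its Tg level was just above the background limit. It lies 28.5 kb from the brightest probe in the locations that the files list. Probe 4, whose location spans 2377 bases and lies 4.86 kb from the brightest, was at 6.65 and 6.26, above background on neither array, with a measured difference of 0.39. The positions are those of the files, which name no genome build, so only chromosomes and distances are given. With the mean over its probes fah was at 0.36, under 2-fold.

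**Figure D2:**
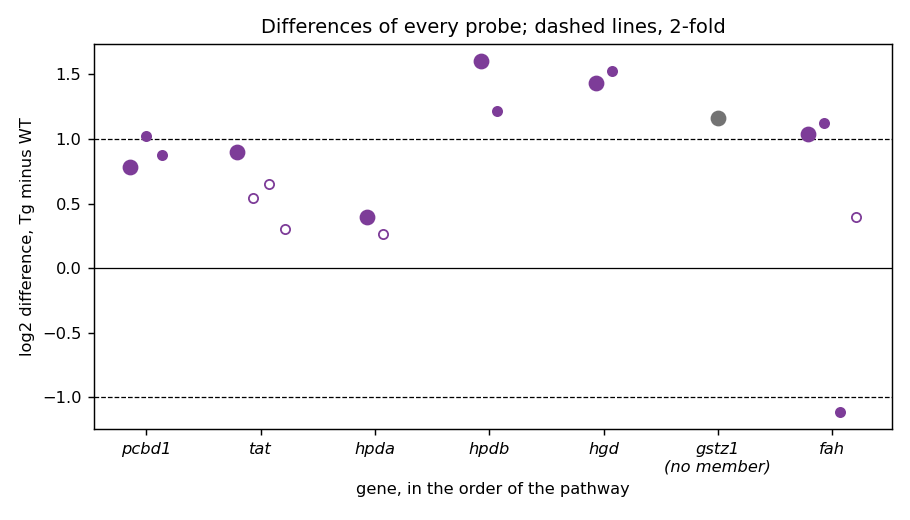
Log2 difference (vertical axis, Tg minus WT) of every probe of the 6 genes and of gstz1 in the order of the pathway. Large points are the brightest probe, open points were above background on neither array, and probe 3 of fah, at -1.11, is the only point under 0.

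A gap of this size between probes was rare. Among 5743 named genes for which 2 or more probes passed the limit on both arrays, the highest and lowest differences of a gene lay a median of 0.26 apart, and the 95th percentile was 0.92. For fah they lay 2.23 apart, and 11 genes, fah included, reached that, or 0.192%. Fah was also the 1 gene of the 5743 with probes past 2-fold in both directions. Both results rest on its probe 3, which was above background on neither array with the limit at the 99th percentile. The brightest 2 probes of fah lay 0.08 apart. Fah was counted here by 3 probes, and the number of probes was not matched between genes. The probes of hgd lay 0.09 apart and those of pcbd1 0.24 apart, both under that median. These gaps were looked up after the values of fah had been seen, and they cover error between probes, not between embryos.

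**Figure D3:**
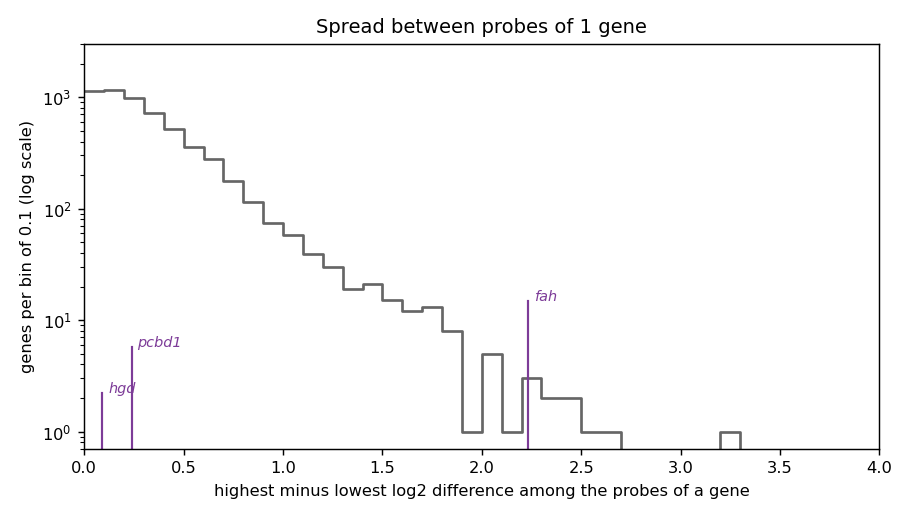
Number of genes (vertical axis, log scale) by the gap between the highest and lowest log2 difference among their probes above background on both arrays, for 5743 genes. Fah stands at 2.23, while hgd and pcbd1 stand under the median of 0.26.

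In descending order of the brightest probe the members ran hpdb (1.60 as measured), hgd (1.44), fah (1.04), tat (0.90), pcbd1 (0.78) and hpda (0.39). Neighbours were 0.12 to 0.40 apart, and the pooled SD between probes of 1 gene was 0.28. A gap between single probes would then have an SD of 0.40, which no pair of neighbours exceeded, so the order of neighbours is not fixed by these values. The SD of 0.28 was pooled over genes with probes above background on both arrays, and it holds no error between embryos. Hpdb counted by its bound would fall between fah and hgd. Of the 16238 genes, 5.22% had a difference at least as high as fah, 7.04% as tat, 8.75% as pcbd1 and 21.8% as hpda. Counted by probes, 12 of the 17 were above background on at least 1 array, and 11 of these had a difference above 0, where 48.1% of all such probes did. Of the 12, 7 passed 2-fold as measured toward the Tg array, where 5.01% of all such probes did, and 1 the other way, where 3.91% did. Both hpdb probes are in the counts toward the Tg array. They passed the limit on that array only, so the filter fixed their direction. By its bound the dimmer of them was 1.37-fold higher, under 2-fold. Probes of 1 gene share its transcript and are not replicates.

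**Figure D4:**
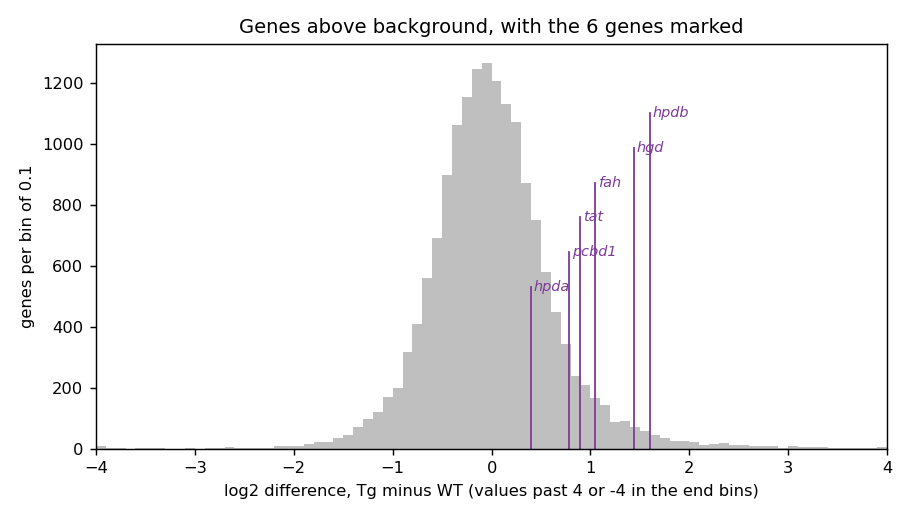
Number of genes per bin of 0.1 (vertical axis) by log2 difference, Tg minus WT (horizontal axis), for 16238 genes above background, with lines at the 6 members. All 6 stand right of 0, from hpda at 0.39 to hpdb at a measured 1.60, within the upper shoulder of the distribution.

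Other genes of phenylalanine and tyrosine metabolism were taken from a list of 9, of which 8 were measured. On the Tg array 2 of the 8 passed 2-fold upward, none downward, and their median difference was 0.47. Gstz1, the isomerase between hgd and fah, was at 11.77 on the Tg array and 10.61 on the WT array by its 1 probe, a difference of 1.17. With it, the last steps of the pathway had differences of 1.44 (hgd), 1.17 (gstz1) and 1.04 (fah) by the brightest probe of each. Fah was at -1.11 by its probe 3 and at 0.36 as the mean over its probes. The only other gene of the list past 2-fold was mif, a cytokine gene whose protein in mammals also acts on phenylpyruvate, at 14.41 and 13.04, a difference of 1.37, with its other 3 probes at 1.52 to 1.61. Dnajc12, a co-chaperone of the aromatic amino acid hydroxylases, was at 0.62 and slc16a10, an aromatic amino acid transporter, at 0.32. The aspartate aminotransferase genes, whose enzymes also accept aromatic amino acids, were at 0.63 (got2a), 0.13 (got1) and 0.07 (got2b). The tautomerase gene ddt was at -0.12, and no probe was matched to il4i1.

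Cofactor genes lay on both sides of 0. Of 7 genes of tetrahydrobiopterin synthesis and recycling above background, 3 were above 0, none passed 2-fold either way, and the median was -0.03, which was above 0 under 3 alternatives (0.10 with the mean over probes, 0.04 with the probe nearest the median and 0.16 with the stricter limit). The synthase gene pts was at 0.76 by its brightest probe and -0.33 by its other. The dihydropteridine reductase genes, whose enzyme works after pcbd1 in recycling, were at 0.55 (qdpra) and -0.49 (qdprb.1), each with both probes on the same side of 0. The sepiapterin reductase genes were at 0.35 (spra) and -0.25 (sprb), and gchfr, a regulator of cofactor synthesis, at -0.03. GTP cyclohydrolase, which begins this synthesis, was at -0.10 for gch2, its other probes at 0.04 and 0.37, and gch1 was not above background. The difference of pcbd1, at 0.78, was close to that of pts by its brightest probe, the highest of the 7 genes, and the others lay lower.

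A list of genes for pigment and amine transmitters holds the tryptophan hydroxylase genes besides genes of the routes from tyrosine. Its median was 0.53 over 9 genes above background, with 2 at least 2-fold higher and none lower. These 2 were the melanin genes tyrp1b (1.24) and dct (1.09), which are also among the melanophore markers. Tph2, a brain hydroxylase of tryptophan, was above background on the Tg array only (at least 1.66-fold higher). Mao, which degrades amine transmitters, was at 0.68. Th and tyr, whose enzymes use tyrosine itself, were just above background on the Tg array only, at 0.05 and 0.27 as measured. Their bounds were 1.00-fold and 1.02-fold, and th2 was above background on neither array. Tryptophan breakdown had a median of 0.69 over 7 genes as measured and 0.42 with bounds, with acmsd (1.09) and gcdha (1.07) past 2-fold. In that list ido1 (1.21) and haao (0.69) were above background on the Tg array only and did not pass 2-fold by their bounds. Breakdown of other amino acids had a median of 0.18 over 34 genes, with 3 higher, 31 under 2-fold and none lower. The higher genes were uroc1 (1.21) and ftcd (1.15) of histidine breakdown and the glycine methyltransferase gene gnmt (1.07), while gldc of the glycine cleavage system was at -0.96. No test sets these lists against the 6 members, for which the median was 0.97, or 0.90 over the 5 measured on both arrays.

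**Figure D5:**
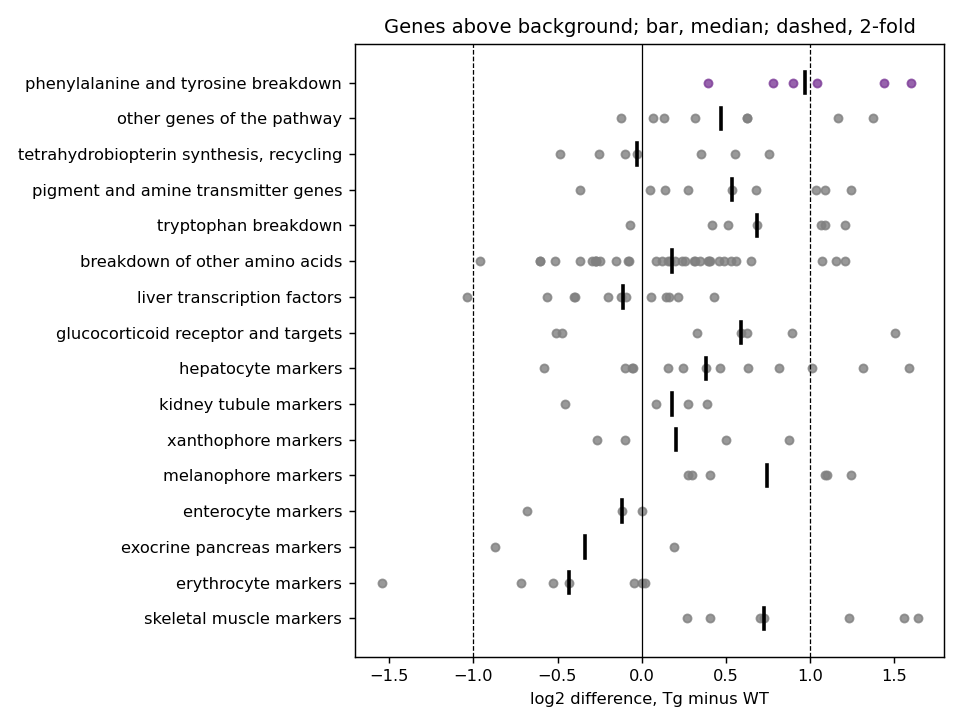
Log2 difference (horizontal axis, Tg minus WT) of each gene above background in the 6 members and 15 other lists, with a bar at the median of the list. The members, all above 0, have a median of 0.97, against -0.03 for cofactor genes and 0.18 for the breakdown of other amino acids. Hpdb, above background on the Tg array only, had its direction fixed by the filter.

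Liver transcription factors were read as well, and, since tat is known from mammals as a gene induced by glucocorticoids, so were genes of that response. Of 12 liver transcription factor genes above background, none was at least 2-fold higher, onecut1 was lower (-1.04, with -1.03 by its other probe), and the median was -0.11. Others were hnf1bb (-0.56, above background on the WT array only), hhex (0.43) and cebpa (-0.40). The glucocorticoid receptor gene nr3c1 was at -0.47. Of 7 genes in its list above background, pck1, an enzyme of glucose synthesis, passed 2-fold (2.83-fold higher), per1a was at 0.89, igfbp1b at 0.62 and tsc22d3 at 0.59 (its other probes above background at 0.50 and -0.14), and the median was 0.59. The paralog igfbp1a was at -0.51, with its other probes at -0.38 and -0.48.

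By the methods total RNA of embryos was measured, while the study's results speak of blood cells, with no isolation of them described for the arrays. In RNA of embryos, a change in the number of cells of a type and a change in RNA per cell cannot be told apart. Markers of several tissues were above background, among them 13 of 16 hepatocyte genes. Their median difference was 0.38 as measured and 0.24 with bounds, with 2 at least 2-fold higher and none lower, and none of the 16 was listed at 0. The log2 of their summed signal was 19.48 on the Tg array and 19.30 on the WT array, and for the 6 members it was 15.08 on the Tg array and 14.22 on the WT array. Most of the sum of the members is the signal of pcbd1, at 14.75 on the Tg array and 13.97 on the WT array. The hepatocyte genes did not move alike. The fibrinogen genes fgg (1.58) and fga (1.01) passed 2-fold. Fgb was at 0.81 by its brightest probe, under 2-fold, and at 1.07 and 1.82 by its others, which passed it. Tfa, the transferrin gene, was at -0.58 by its brightest probe, with 2 of its 6 probes above 0 (0.17 and 0.36). Fabp10a, a defining gene of hepatocytes, was above background on the Tg array only, at least 1.67-fold higher, while ttr, shbg and ahsg2 were above background on neither. Kidney tubule markers had a median of 0.18 over 4 of 8 genes (pdzk1 at -0.45, slc20a1a at 0.39), with log2 summed signals of 10.59 on the Tg array and 10.52 on the WT array. Skeletal muscle markers had a median of 0.73 over 7 of 7 genes, led by tnnt3b (1.64), with 19.86 on the Tg array and 19.05 on the WT array. Melanophore markers had 0.75 over 6 of 6, with 16.08 on the Tg array and 14.92 on the WT array. For the remaining tissues, with the summed signal of the Tg array and then of the WT array in parentheses, medians were 0.20 for 4 of 6 xanthophore genes (15.26 and 15.31), -0.12 for 3 of 6 enterocyte genes (17.07 and 17.44), -0.34 for 2 of 6 exocrine pancreas genes (9.99 and 10.19) and -0.43 for 7 of 7 erythrocyte genes (20.40 and 20.43). Most of the erythrocyte sum is globin signal, with hbbe1.1 at 19.00 on both arrays, where the highest signal of any probe was 19.16. Whether a change would show so near the top of the scale was not tested. The part of these tissues in the differences of the 6 members was not tested either.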

How the data were processed

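RNA of Tg(RE:HSE:EGFP) and WT embryos was measured on Agilent 1-colour arrays, 1 per group. The authors scanned them and read the images with Agilent Feature Extraction (credited to the submitters' processing notes, with no version). The deposited values are normalized log2 signals, 1 for each of 43553 probes per array. The sources used here do not name the normalization. The files hold no background flags, and the table of the series repeats their values at all 43553 probes.

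From every value the 75th percentile of its array was subtracted (9.59 for both), which moved every difference by -0.001. Probes were named by RefSeq accession (26957), a current (2484) or an older symbol (1602), through the gene table of an assembly used for names only. The file's own name stood for 4376 probes without a match and 21 with several matches, while 8113 had no name. The probe with the highest mean over both arrays represented its gene. Above background were 57.3% of probes on the Tg array and 57.4% on the WT array, and Pearson's r between the arrays was 0.980 over probes (no independent replicates). A gene above background on 1 array was called by a bound: for the dim array, whichever was higher of the probe's signal and the lowest signal past the limit there. The gene lists were written from textbook knowledge. Named are all members, all genes of the other-pathway and cofactor lists, and up to 4 genes of each other list with the largest differences. Beside these, nr3c1, igfbp1a, tfa, hbbe1.1, th, tyr, th2 and the dim hepatocyte markers were chosen after their values were seen. A gene of the pathway and a gene of another list are not reported here. The members and lists were chosen with earlier results of these data known. Precision is limited by the number of arrays, and no test was run. The steps were tested on simulated data.

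Alternatives were no scaling, median centring, quantile normalization, the mean over probes, the probe nearest its gene's median, a limit at the 99th percentile, no filter, the table of the series, and thresholds of 1.5-fold and 4-fold. Agreement of all probes was added after seeing the data. Python 3.11.15, numpy 2.4.6, pandas 2.3.3 and matplotlib 3.10.9 were used.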

Additional observations from a re-analysis of the deposited data

How the results depend on the processing

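No scaling, median centring, quantile normalization, the 99th percentile limit, no filter and the table of the series could hardly move a difference. The choice of probe could, and with the mean over probes, or the probe nearest its gene's median, the 6 genes stayed above 0. With the mean over probes fah was at 0.36, under 2-fold, and tat at 0.60. With the probe nearest its gene's median tat was at 0.54. With the limit at the 99th percentile hpdb, measured at 1.60, was above background on neither array, so no call can be given. Of the 3 members above that limit 2 were higher, and 473 of all genes were at least 2-fold higher and 436 lower. The number of all genes above that limit is not given, so these counts give no share. At 1.5-fold, 5 of the 6 members were higher, against 2001 of the 16238 genes above background higher and 2024 lower. At 4-fold, 0 of the 6 members were higher, against 111 of the same 16238 genes higher and 38 lower. In a setting chosen after seeing the data, a gene was counted only where every probe above background passed 2-fold. Then 1 member was higher (hgd), against 596 of all genes higher and 379 lower, with no share given. Of the other lists, the median of pigment and transmitter genes was 0.22 with the mean over probes and 0.14 without a filter, that of melanophore markers 0.36 with the probe nearest the median and 1.09 with the stricter limit, that of xanthophore markers 0.50 with that limit, and that of exocrine pancreas markers 0.10, above 0, without a filter. The medians of liver transcription factors (0.05 with the stricter limit) and kidney tubule markers (-0.04 without a filter) changed sign too. The cause of these changes was not tested. No paired analysis was possible because each group has 1 array. No replicate could be left out for the same reason. Signal close to background limits tat, hpda and hpdb.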
